A study of Homo sapiens with 12 samples.

Results

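The dual-specificity MAP kinase phosphatases are enzymes that switch off ERK, JNK and p38 by removing phosphate from both the threonine and the tyrosine of the activation loop. Several of them are made in response to the kinases they inactivate, and they are known as feedback inhibitors whose mRNAs are produced and lost quickly. Their messages were followed here in U2OS cells, a human osteosarcoma line, by matching 10 named genes to the 22379 genes of a spike-in-normalised mRNA table. The 4 nuclear inducible members were DUSP1, DUSP2, DUSP4 and DUSP5. The 6 other members were the cytoplasmic, ERK-directed DUSP6 and DUSP7, the JNK- and p38-directed DUSP8, DUSP10 and DUSP16, and the small atypical DUSP14.

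The 12 libraries formed 6 groups of 2 replicates. The cells had received a plasmid encoding Cas9 with a nontargeting guide (NONT), a guide against NUP93, which encodes a nuclear pore protein (NUP93-KO), or a guide against EXOSC5, which encodes a subunit of the RNA exosome (EXOSC5-KO). Each genotype was left untreated or exposed for 8 h to 1 µM triptolide, a small molecule that blocks initiation by RNA polymerase II. The knockouts were pools of transiently transfected cells selected with puromycin, not clones, so unedited cells could remain. The labels did not state that replicates came from separate cultures, and the p-values therefore measure the spread between these libraries, which may be technical.

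Values were scaled to spike-in RNA added per cell, so that a value follows mRNA per counted cell. In bulk RNA, fewer cells expressing a gene and less RNA per cell cannot be told apart. The approximate depth was 8590000 to 11980000 reads per library, and 1 read was worth 0.489 to 1.76 on the value scale. NUP93 was 1753 and 2489 in untreated NONT and 1395 and 1432 in untreated NUP93-KO (log2 fold change −0.56 ± 0.20 SE, limma adjusted p = 0.926). EXOSC5 was 299 and 481 in untreated NONT and 216 and 148 in untreated EXOSC5-KO (−1.08 ± 0.29, limma adjusted p = 0.151), so neither targeted mRNA passed the test without drug on the spike-in scale. EXOSC5 passed with libraries scaled to the mitochondrially encoded mRNAs (−1.46, limma adjusted p = 0.00544), to the same total (−1.11, limma adjusted p = 0.00806) or by median of ratios (−1.18, limma adjusted p = 0.00516), and NUP93 passed on the last pair of scales (−0.45 and −0.49, limma adjusted p = 0.0498 and 0.0427). Of the markers of the line, VIM (45686.2 to 66973.7 in untreated libraries), COL1A1 (23577.1 to 57588.1) and RUNX2 (218.1 to 403.5) were present. ALPL (106.7 to 245.5) and SPP1 (128.2 to 455.7) were present as well, while COL1A2 was low (10.2 to 42.0). The osteoblast gene SP7 was listed at 0 throughout and BGLAP did not exceed 5.7. Among markers of other cell types, PTPRC, PECAM1 and DES stayed at or below 4.7, 10.0 and 6.0. The epithelial genes EPCAM (16.8 to 47.6) and CDH1 (32.2 to 69.7) were detected in untreated libraries. The neuronal gene SYP reached 401.1 to 910.1 in untreated libraries.

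DUSP1 and DUSP8 carried cyclic AMP response elements (TGACGTCA), the sites at which CREB and related factors bind, in the 250 bases before the RefSeq start site. Both members fell after the block of initiation, as most tested genes did, but to different degrees (log2 fold changes of −9.21 and −3.83 in NONT). The sequences show how a promoter with such an element and a TATA box (TATAAA) compares with a promoter that has only the elements. A part of these elements in the fall was not tested. Capitals mark TGACGTCA and TATAAA. The DUSP1 sequence lies at chr5:172771196-172771445 and the DUSP8 sequence at chr11:1572272-1572521, both on the minus strand of GRCh38.p14.
DUSP1: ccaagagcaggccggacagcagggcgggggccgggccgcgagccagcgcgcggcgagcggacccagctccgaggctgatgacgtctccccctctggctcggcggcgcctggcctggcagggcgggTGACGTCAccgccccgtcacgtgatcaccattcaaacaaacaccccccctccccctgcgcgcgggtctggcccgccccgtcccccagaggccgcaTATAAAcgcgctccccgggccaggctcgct
DUSP8: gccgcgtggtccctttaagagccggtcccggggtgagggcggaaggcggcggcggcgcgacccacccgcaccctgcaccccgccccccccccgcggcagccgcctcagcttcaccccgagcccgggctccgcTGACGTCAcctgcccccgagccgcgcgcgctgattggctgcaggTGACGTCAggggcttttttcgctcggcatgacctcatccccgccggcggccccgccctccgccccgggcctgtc
In DUSP1, the element began 125 bases before the start and the TATA box 30 bases before it. In DUSP8, 2 elements began 118 and 74 bases before the start. Across 35116 RefSeq promoters searched over the same 250 bases, 1.65% held TGACGTCA, 0.0541% held at least 2 copies, and 6.8% held TATAAA on the sense strand. TGACGTCA reads the same on both strands, and it contains the shorter TGACG, which was present in 21.2% of promoters on either strand. Promoters were found for 8 of the 10 members, and TGACGTCA was not in the window of the 6 others among them.

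The 3′ UTRs of the members differed in their AU-rich elements, short motifs that recruit decay and stabilising factors to many inducible mRNAs. The nonamer TTATTTATT, a strict form of the element, was searched on the sense strand of the GENCODE 44 canonical transcripts. It was found 2 times in the 666-base 3′ UTR of DUSP1, a count reached by 0.565% of the 1239 tested 3′ UTRs of like length, and 1 time in the 2467-base 3′ UTR of DUSP8, a count reached by 12.2% of its like-length set. DUSP4 also held it 1 time, in a 3′ UTR of 3962 bases (18.4% of its like-length set). The DUSP1 and DUSP8 sites are shown with their neighbouring bases because DUSP1 had the most negative fold change of the tested members, and capitals mark the nonamer. They lie in the 3′ UTR on the minus strand of GRCh38, at chr5:172768642-172768671, chr5:172768374-172768403 and chr11:1556373-1556402.
DUSP1 proximal: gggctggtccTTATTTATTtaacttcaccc
DUSP1 distal: agaatataccTTATTTATTtttgtgtaggt
DUSP8: tttcgattttTTATTTATTtaagctgttca
The DUSP1 windows span bases 91 to 120 and 359 to 388 of its 3′ UTR, and the DUSP8 window bases 116 to 145. Over 12933 tested genes with a canonical 3′ UTR, 9.87% held the nonamer and 74.3% the core pentamer ATTTA, which the nonamer contains.

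Members without the nonamer still differed in the pentamer. DUSP10 (3 copies in 988 bases) and DUSP16 (8 copies in 3551 bases) held pairs within 30 bases, DUSP2 and DUSP14 held 3 copies each in 654 and 629 bases, and DUSP5 (1107 bases) and DUSP7 (1896 bases) held none. A window of each kind is given with the pentamers in capitals, at chr1:221701500-221701529 (minus strand), chr12:12473582-12473611 (minus strand) and chr17:37512990-37513019 (plus strand).
DUSP10: agaaaaaaaaATTTATTTAaaaatattttt
DUSP16: aagttacATTTAagaaaATTTAtaagaaag
DUSP14: ctgggtgttcaaATTTAttttaagagatag
The pentamer density was 6.01 per kb in DUSP1, 4.77 in DUSP14, 4.59 in DUSP2, 3.04 in DUSP10, 2.25 in DUSP16 and 1.62 in DUSP8, beside a median of 1.75 over all tested genes.

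Without drug, DUSP1 was the most abundant member, and DUSP4 and DUSP6 were close to the limit of detection. Levels between genes were compared per kb of canonical transcript. In NONT, DUSP1 stood at 608 and 851 per kb in the 2 replicates and DUSP7 at 175 and 225, and neither range overlapped the next. DUSP2, DUSP10, DUSP16, DUSP14 and DUSP5 followed with means of 69.2, 61.3, 57.7, 53.1 and 47.6 per kb, and each overlapped its neighbour in this order. DUSP8 had a mean of 11.2 per kb, DUSP6 of 1.78 and DUSP4 of 0.412, and DUSP6 and DUSP4 overlapped in EXOSC5-KO. DUSP1, DUSP7, DUSP8, DUSP6 and DUSP4 held the same places in NUP93-KO and EXOSC5-KO, whereas the members in the middle changed order. In NUP93-KO, none of the neighbours overlapped, and DUSP2 (112 per kb) and DUSP10 (83.7) stood above DUSP5 (62.6), DUSP14 (44.7) and DUSP16 (38.3). The row of DUSP16 was identical in every library to that of an unnamed gene (ENSG00000280962), so its level is uncertain. Summed with that row, DUSP16 would stand at 115, 76.6 and 147 per kb in the untreated NONT, NUP93-KO and EXOSC5-KO cells, while its fold changes stay the same.

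The question of the drug comparison was how far each message falls within 8 h of a block of initiation by RNA polymerase II. Of the 10 members, 8 averaged 10 or more across the untreated libraries and were tested, and all 8 fell after triptolide in each genotype. The background was a general loss of mRNA, since 90.0% of the 13811 tested genes were lower in NONT at a limma adjusted p under 0.05, against 55.1% in NUP93-KO and 64.3% for EXOSC5-KO. The treated libraries lay below the untreated ones without overlap for all 8 tested members, and the same held for 94.8%, 79.1% and 88.0% of all tested genes. In NONT the count of members is therefore close to the background, and the size of the fall is given here beside that of all genes. The tested members had a median log2 fold change of −5.63 in NONT, where the median gene was at −1.62. The corresponding values were −4.54 and −0.92 in NUP93-KO, and −4.33 and −1.08 for EXOSC5-KO. With DUSP14, which was listed at 0 in both treated NONT libraries, set to the worth of 3 reads, the NONT median was −5.23. Less than 10% of the untreated mean was left for 8 tested members in both NONT and NUP93-KO and for 7 in EXOSC5-KO, against 17.5%, 9.65% and 10.2% of all tested genes. All fold changes were taken on the log2(value + 1) scale, which understates the change of low genes.

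**Figure D1:**
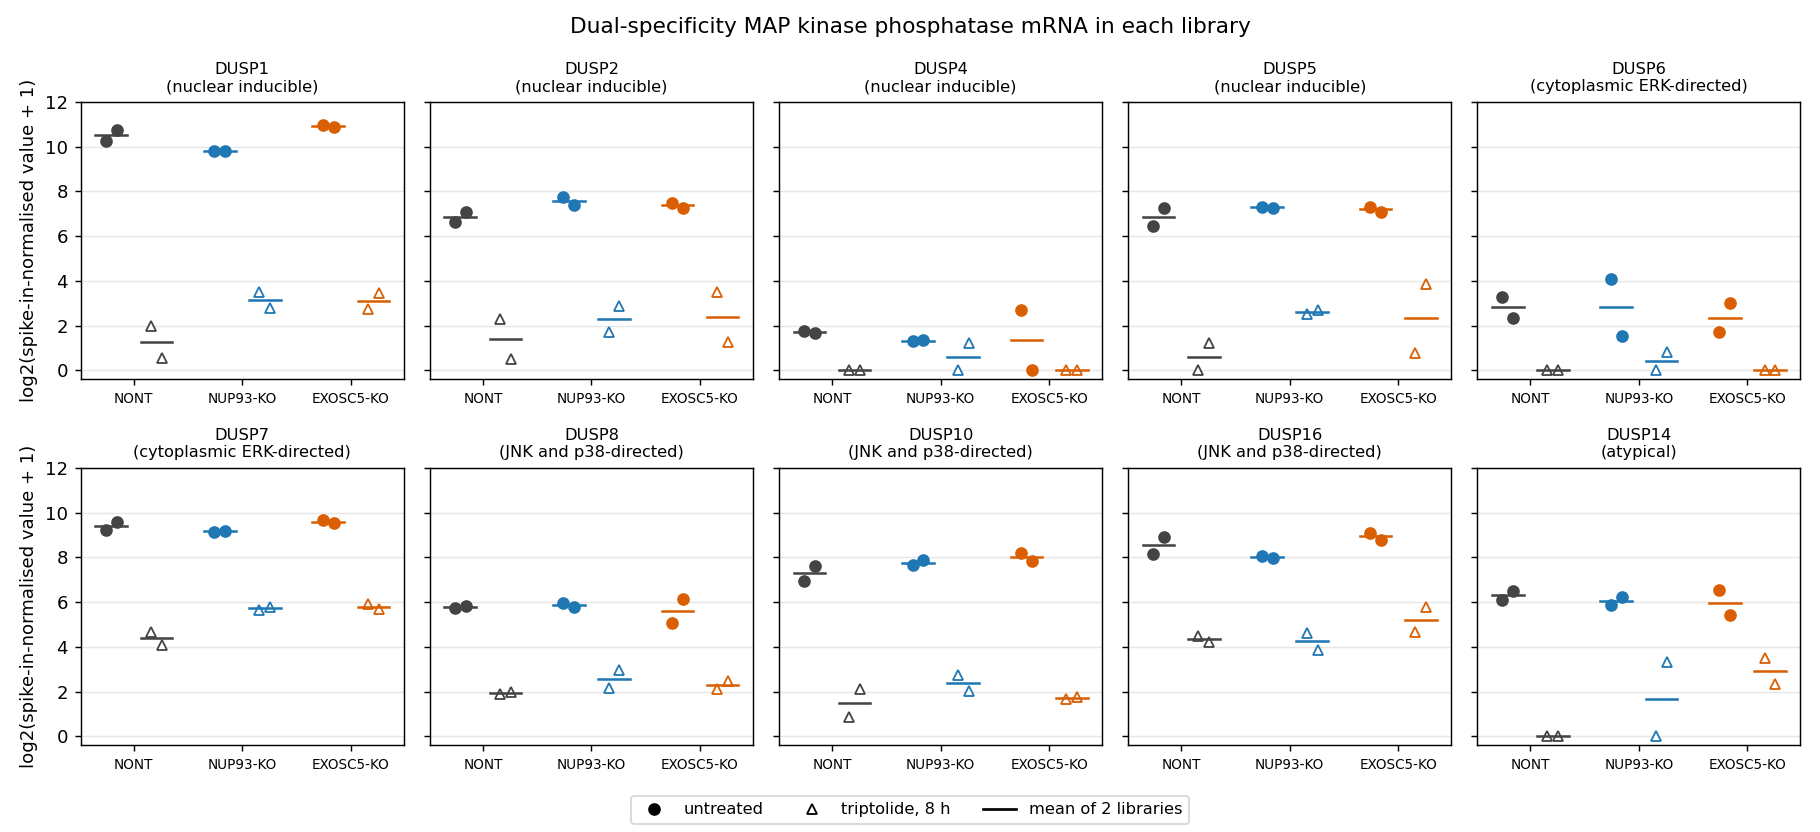
Each panel shows 1 member, with log2(spike-in-normalised value + 1) on the vertical axis and the 3 genotypes on the horizontal axis. Filled circles are untreated libraries, open triangles libraries after 8 h of triptolide, and lines the mean of the 2 log2 values; treated points lie below untreated points in every panel and genotype except for DUSP4 in EXOSC5-KO, where an untreated library was also at 0.

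DUSP1, also called MKP-1, is an immediate early gene whose nuclear product acts on p38, JNK and ERK. Its value was 1223 and 1713 in untreated NONT and 3.01 and 0.489 after triptolide, which correspond to about 5 reads and 1 read. In NUP93-KO it was 879 and 888 before and 10.5 and 5.97 after the drug, and in EXOSC5-KO it was 2022 and 1906 before and 5.62 and 9.88 after. On values not divided by transcript length, DUSP1 was the highest member without drug, whereas DUSP7 and DUSP16 stood above it in every treated library. The DUSP16 transcript is 6.66 kb long and that of DUSP1 2.01 kb. Per kb, DUSP7 still stood above DUSP1 in every treated library, but DUSP16 stood below it in the treated NUP93-KO libraries. Its untreated and treated libraries were far apart in each genotype. The log2 fold change was −9.21 ± 0.43 in NONT (limma adjusted p = 6.19e-11), the second lowest of the 13811 tested genes. It was −6.63 ± 0.43 in NUP93-KO (limma adjusted p = 4.5e-09, place 22 from the lowest) and −7.85 ± 0.43 in EXOSC5-KO (limma adjusted p = 8.73e-10, place 7). These places depend in part on the untreated level. On the log2(value + 1) scale, a gene low without drug could not reach such values even if wholly lost. The share left was 0.119% in NONT, and 0.931% and 0.395% were left in the NUP93 and EXOSC5 knockouts, the lowest of the tested members in the knockouts and, apart from DUSP14 at 0, in NONT.

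DUSP2, a nuclear phosphatase best known from activated leukocytes, was also present in these cells. It was 98.3 and 135 in untreated NONT and 3.92 and 0.421 after triptolide, 211 and 167 against 2.26 and 6.44 in NUP93-KO, and 175 and 154 against 10.2 and 1.42 in EXOSC5-KO. The groups did not overlap, and the treated replicates differed by a larger factor than the untreated ones, at no more than 10.9 reads each. The log2 fold changes were −5.46 ± 0.70, −5.26 ± 0.70 and −4.98 ± 0.70 in the same order.

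DUSP5, a nuclear phosphatase that binds and inactivates ERK alone, was 85.7 and 150 in untreated NONT and 0 and 1.34 after the drug. The treated NONT libraries held about 3 reads in all, against about 176 in the untreated ones, and by group means 0.569% was left. The ratio of these pooled approximate reads, adjusted for the worth of a read in each library, was 134. Its 95% counting interval was 45.1 to 656 and treats the rounded reads as true counts. DUSP5 was 159 and 151 against 4.71 and 5.44 in NUP93-KO and 158 and 135 against 0.722 and 13.6 in EXOSC5-KO. The treated EXOSC5-KO replicates lay far apart but below both untreated libraries. The fitted log2 fold changes were −4.68 ± 0.75 in NUP93-KO and −4.87 ± 0.75 in EXOSC5-KO. Such intervals cover counting error only.

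DUSP4, the nuclear relative of DUSP1 also called MKP-2, was at or below the limit of 3 reads in most libraries and was not tested. It was 2.37 and 2.2 in untreated NONT, 1.45 and 1.57 in untreated NUP93-KO and 5.43 and 0 in untreated EXOSC5-KO. After triptolide it was listed at 0 except in the second NUP93-KO replicate, at 1.3. No change of DUSP4 was detectable at this depth.

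Of the cytoplasmic, ERK-directed members, DUSP7 gave the best measured fall, because 33 to 62.9 reads were left in every treated library. It was 590 and 757 in untreated NONT and 24.1 and 16.1 after triptolide, 566 and 585 against 49.8 and 53.8 in NUP93-KO, and 811 and 729 against 59 and 50.3 in EXOSC5-KO. The treated knockout libraries were higher than both treated NONT libraries, while the untreated values of NUP93-KO lay below those of NONT and the values of EXOSC5-KO around the higher of them. The log2 fold changes were −5.01 ± 0.27 (limma adjusted p = 1.95e-10), −3.45 ± 0.27 (limma adjusted p = 3.4e-08) and −3.79 ± 0.27 (limma adjusted p = 1.04e-08) in NONT, NUP93-KO and EXOSC5-KO. DUSP7 is without an AU-rich pentamer, and 2.99%, 9.01% and 7.1% of it was left. DUSP6, or MKP-3, a feedback inhibitor induced by ERK, was 8.82 and 4.1 in untreated NONT, 15.9 and 1.94 in untreated NUP93-KO, and 2.26 and 6.97 in untreated EXOSC5-KO, and it was not tested. After the drug it was listed at 0 in 5 of 6 libraries and at 0.773 in the sixth.

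The JNK- and p38-directed members fell to different degrees. DUSP10, or MKP-5, was 123 and 194 in untreated NONT and 0.808 and 3.28 after triptolide, 199 and 235 against 5.64 and 3.06 in NUP93-KO, and 287 and 226 against 2.19 and 2.43 in EXOSC5-KO. The log2 fold changes of −5.81 ± 0.52, −5.39 ± 0.52 and −6.27 ± 0.52 for DUSP10 lay within the range of the tested nuclear inducible members in each genotype. In the knockouts only DUSP1 had a more negative value among the tested members. DUSP8 was lower to begin with, at 51.7 and 56.1 in untreated NONT and 2.76 and 2.98 after the drug, 61.6 and 54.2 against 3.52 and 6.77 in NUP93-KO, and 32.8 and 68.4 against 3.39 and 4.48 in EXOSC5-KO. Its treated libraries held 3.62 to 6.8 reads, and its log2 fold changes were −3.83 ± 0.56, −3.31 ± 0.56 and −3.30 ± 0.56. DUSP8 holds a nonamer and 2 copies of TGACGTCA, and its fold change was less negative than that of DUSP1 in each genotype, a difference between genes that was not tested.

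DUSP16, or MKP-7, kept more reads than most members, from 13.7 to 64.5 per treated library. It was 283 and 486 in untreated NONT and 21.6 and 17.7 after triptolide, 263 and 247 against 23.8 and 13.6 in NUP93-KO, and 537 and 443 against 24 and 53.2 in EXOSC5-KO. The log2 fold changes were −4.18 ± 0.40, −3.75 ± 0.40 and −3.73 ± 0.40, with 5.11%, 7.35% and 7.87% left. The responses of DUSP8 and DUSP16 differed between genotypes by less than the SE of the difference (0.80 for DUSP8 and 0.57 for DUSP16).

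DUSP14, a short phosphatase that lacks the kinase-binding domain of the classical members, was the least even. It was 68.1 and 88.5 in untreated NONT and listed at 0 in both treated libraries, so that it was at least 47.9-fold lower when 3 reads are taken as the floor in each treated library. It was 58.3 and 73.6 against 0 and 8.91 in NUP93-KO (log2 fold change −4.40 ± 0.84, limma adjusted p = 0.000272) and 91.5 and 41.8 against 10.3 and 4.1 in EXOSC5-KO (−3.05 ± 0.84, limma adjusted p = 0.00454). The untreated and treated libraries did not overlap, but the call in EXOSC5-KO was lost without the first untreated EXOSC5-KO replicate (−2.50, limma adjusted p = 0.0501). Across all alternatives its adjusted p in EXOSC5-KO ranged from 0.000203 to 0.0988.

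**Figure D2:**
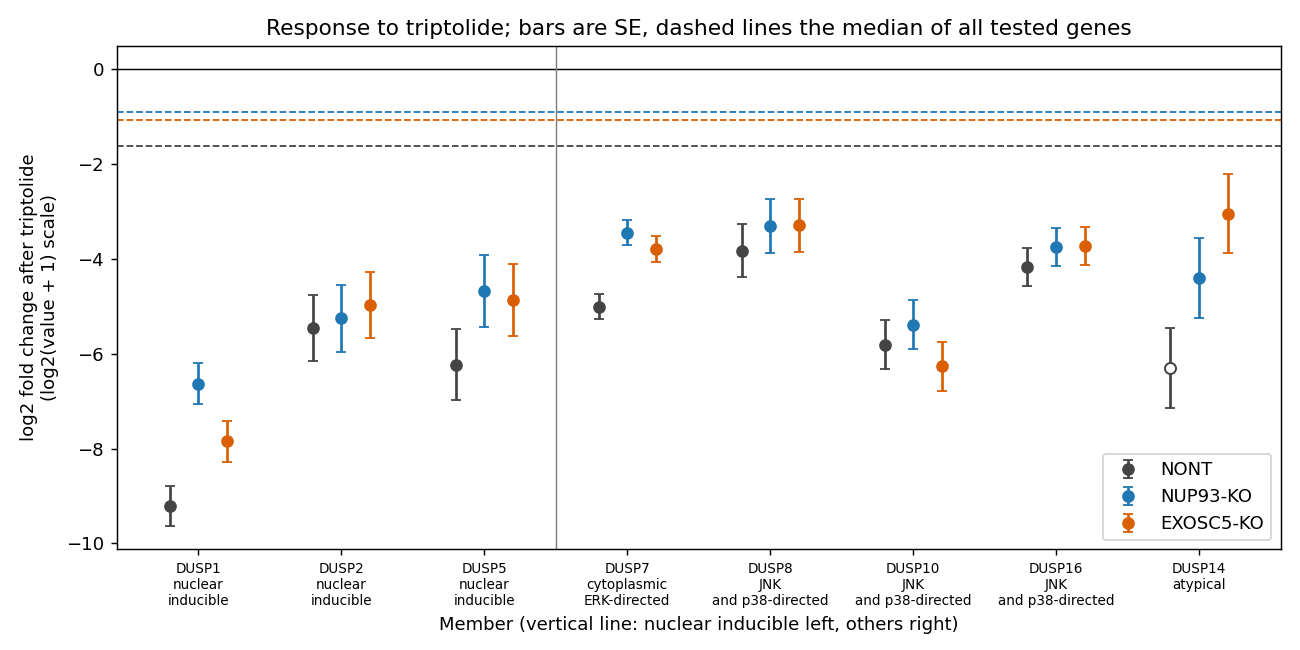
Log2 fold change after triptolide (vertical axis, log2(value + 1) scale) of the 8 tested members (horizontal axis) in NONT, NUP93-KO and EXOSC5-KO, with SE bars from limma. Dashed lines mark the median of all tested genes at −1.62, −0.92 and −1.08, all members lie below their line, and the open circle marks DUSP14 in NONT, whose treated libraries were at 0 and whose plotted value is not a bound.

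The nuclear inducible members were then set against the others. The median log2 fold change over all members of each class, untested ones included, was −5.84 for the 4 nuclear inducible members and −4.59 for the 6 others in NONT, a difference of −1.25 (SD 0.06 over the 4 pairings of treated and untreated libraries). It was −4.97 against −3.60 in NUP93-KO, a difference of −1.37 (SD 0.12), and −4.93 against −3.52 in EXOSC5-KO, a difference of −1.41 (SD 0.32). With members listed at 0 set to the worth of 3 reads, the NONT difference was −1.30, and the other differences were −1.37 and −1.41. The classes overlapped, because DUSP10 fell within the range of the tested nuclear inducible members, and because DUSP4 and DUSP6 were near 0 in any state. In NONT the fitted value of DUSP14, −6.30 with both treated libraries at 0, lay within that range as well. The difference was sensitive to low values, since adding 5 in place of 1 before the logarithm reduced it to −0.26 in NONT, and to −0.98 and −0.91 in the NUP93 and EXOSC5 knockouts. The pairings reuse the same libraries, so their SD is not an SE of the difference. DUSP2 and DUSP5, which set the median of the nuclear inducible class in each genotype, had SEs of 0.70 and 0.75. Genes are not replicates and no test was made of the difference between the classes.

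**Figure D3:**
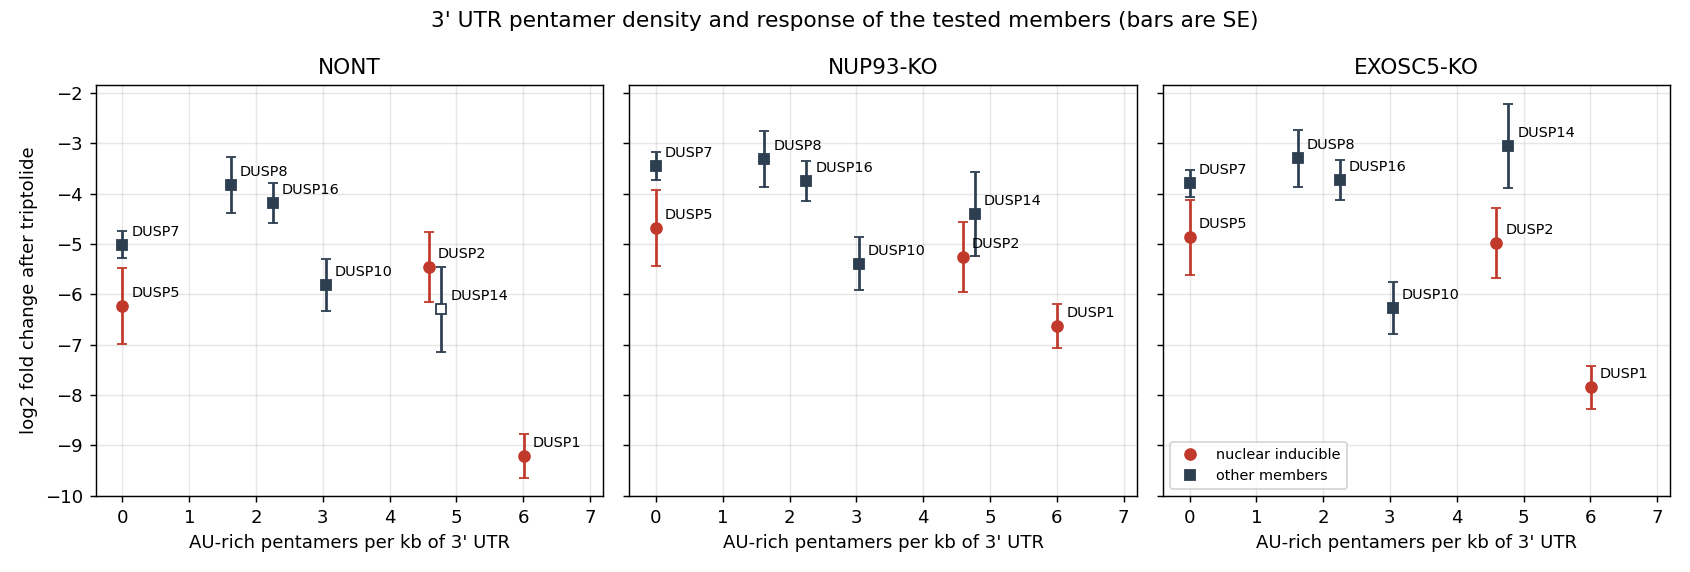
Log2 fold change after triptolide (vertical axis, with SE bars from limma) against the number of AU-rich pentamers per kb of canonical 3′ UTR (horizontal axis) for the 8 tested members, with a panel for each genotype, circles for nuclear inducible and squares for other members. DUSP1 stands apart at 6.01 pentamers per kb, DUSP5 and DUSP7 lie at 0 with falls of −4.68 and −3.45 in NUP93-KO, and the open square is DUSP14 in NONT, at 0 in both treated libraries.

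In the plot of pentamer density, members with and without the motif had overlapping values. DUSP5, with no pentamer, had fitted values of −6.23 in NONT and −4.68 and −4.87 in the NUP93 and EXOSC5 knockouts, and DUSP2, with 4.59 per kb, had −5.46, −5.26 and −4.98, with overlapping SE bars in each genotype. DUSP14, with 4.77 per kb, had −4.40 and −3.05 in the knockouts and was at 0 in treated NONT. Over all tested genes with a canonical 3′ UTR, the median log2 fold change in NONT was −1.38 for 3327 genes without the pentamer and −1.77 for 5269 genes with 4 or more. It was −1.60 for 11657 genes without the nonamer, −1.85 for 977 genes with 1 and −2.03 for 299 genes with 2 or more. In EXOSC5-KO the last set of medians was −1.07, −1.32 and −1.36, and in NUP93-KO it was −0.91, −1.06 and −1.08. These are descriptions over genes that also differ in length and base composition, and the part of the motif was not tested.

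The members were next placed beside 83 other genes of the MAP kinase pathways in 7 lists, of which 73 were tested. After triptolide, 68 of the 73 fell in NONT, and 48 and 55 fell in the NUP93 and EXOSC5 knockouts, while 0 rose. Of all tested genes, 90.0%, 55.1% and 64.3% fell in the same order. With a median-of-ratios scale 29 of the 73 fell and 16 rose in NONT, 30 fell and 16 rose in NUP93-KO, and 27 fell and 18 rose in EXOSC5-KO. Among all 13811 tested genes, that scale gave 4185, 4101 and 3964 lower and 3752, 3681 and 3612 higher. On the spike-in scale, the medians of the 73, at −1.77, −1.15 and −1.33, were near those of all genes. Less than 10% of the untreated mean was left for 13, 9 and 11 of the 73, beside 17.5%, 9.65% and 10.2% of all tested genes. Much of the kinase mRNA was still present, beside a median of 31.4% left over all tested genes in NONT. All 9 tested MAP kinases fell in NONT, where a median of 43.9% was left. Of the 9, 4 fell in NUP93-KO and 6 in EXOSC5-KO, with medians of 72.3% and 63.3% left. MAPK3, which encodes ERK1, was 453 and 707 in untreated NONT and 466 and 291 after the drug, and these libraries overlapped although the fit gave −0.62 ± 0.26 (limma adjusted p = 0.0304). MAPK9, which encodes JNK2, kept 55.3%, and the response of both turned positive when libraries were scaled to the same total or by median of ratios. By contrast MAPK14, which encodes p38α, went from 1199 and 1731 to 82.6 and 86.3 (−4.08 ± 0.22, limma adjusted p = 2.06e-10), and MAPK7, which encodes ERK5, kept 6.47%.

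The kinases upstream were also mostly lower. In NONT, where 90.0% of all tested genes fell, 6 of 7 MAP kinase kinases and 14 of 15 MAP kinase kinase kinases fell, with medians of 16.4% and 21.5% left. In NUP93-KO 5 and 11 of these fell and in EXOSC5-KO 7 and 11 fell, beside 55.1% and 64.3% of all tested genes, and no difference between the lists was tested. MAP2K7, an activator of JNK, kept 8.99% in NONT, while MAP2K1, which encodes MEK1, kept 46.6% and turned positive under those scales. MAP3K1 went from 189 and 231 to 3.14 and 0.878 (−6.23 ± 0.50, limma adjusted p = 9.76e-09), whereas MAP3K20 kept 57.9% and turned positive under the same scales.

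Other negative regulators and ERK output genes were mixed. Their counts stand beside 90.0%, 55.1% and 64.3% of all tested genes that fell in NONT, NUP93-KO and EXOSC5-KO. Of 14 tested phosphatases outside the members, 12 fell in NONT, 7 did so in NUP93-KO and 9 did in EXOSC5-KO, with 33.2% left at the median in NONT. DUSP11, an RNA phosphatase, kept 2.53% and PPM1D, a p53-induced phosphatase that acts on p38, kept 4.06%, but DUSP28 (23.7 and 26.4 in untreated NONT, 14.2 and 21.7 in treated) did not pass the test. The 5 tested Sprouty and Spred genes, which encode inhibitors of receptor signalling to ERK, all fell in NONT and NUP93-KO and 4 of 5 fell in EXOSC5-KO, with 12.2% left at the median in NONT. SPRY2 went from 116 and 148 to 1.26 and 1.71 (−5.74 ± 0.50, limma adjusted p = 2.89e-08). Of the 9 ERK output genes tested, 9, 7 and 8 fell in NONT, NUP93-KO and EXOSC5-KO. EGR1 and FOS, immediate early transcription factors, kept 0.392% and 0.714% in NONT, while CCND1, which encodes cyclin D1, kept 42.2% and turned positive under the scales named above. Of 14 scaffolds and substrate kinases, 13, 9 and 10 fell, with 35.2% left at the median in NONT.

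**Figure D4:**
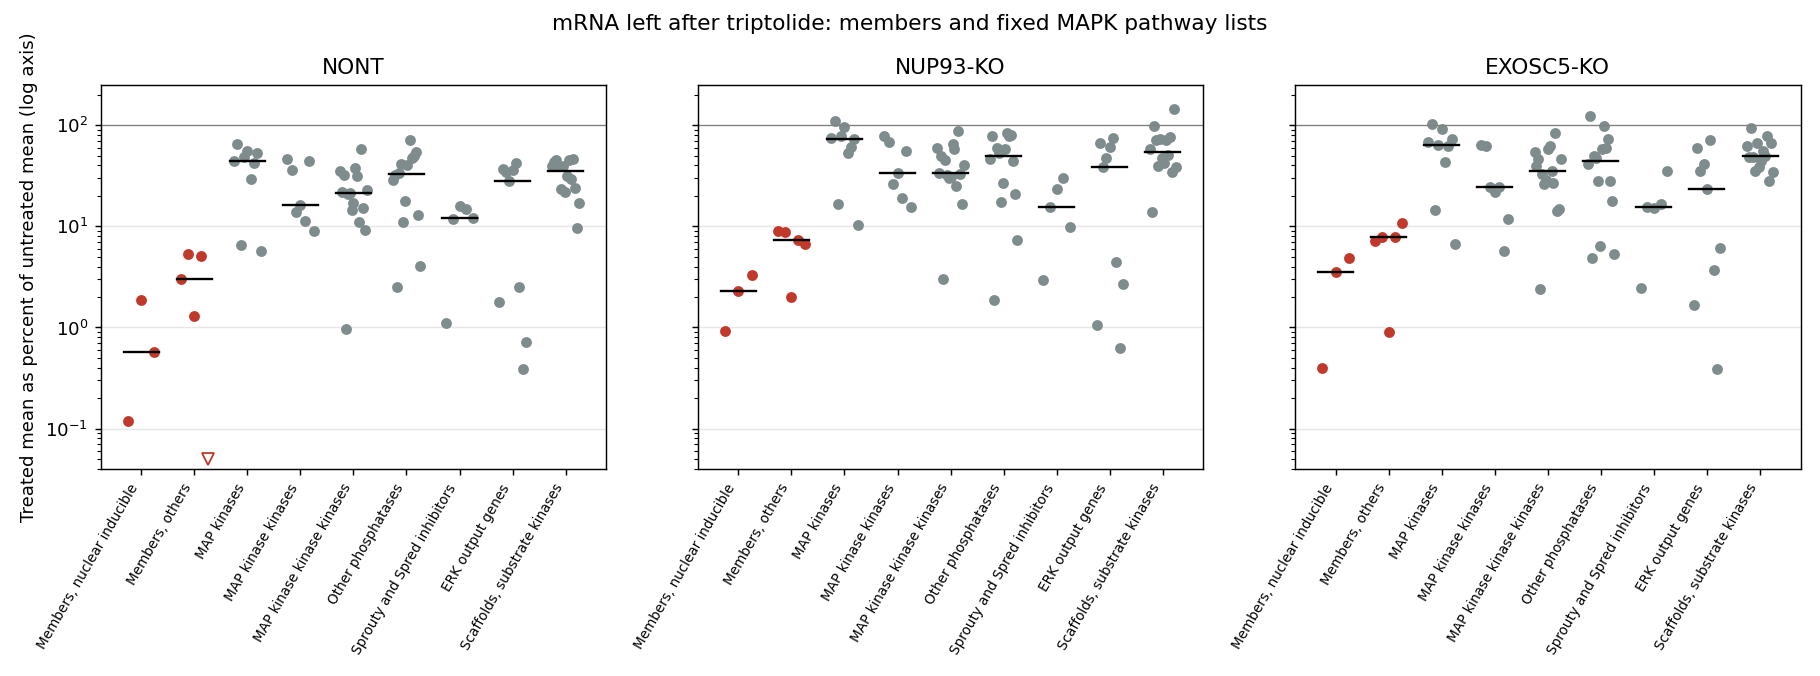
Treated mean as a percent of the untreated mean (vertical log axis) for the tested members (red) and the tested genes of 7 MAP kinase pathway lists (grey), with a panel for each genotype and a bar at the median of each list. The members lie between 0.119% and 5.32% in NONT, with DUSP14 at 0 drawn as an open triangle at the foot of the axis, and the MAP kinases have a median of 43.9%.

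Without drug, no tested member passed the test in a knockout. Against NONT, 0 of 8 passed in NUP93-KO and 0 of 8 in EXOSC5-KO by limma, beside 0.0217% and 0.521% of all tested genes in either direction, and 0 members had an unadjusted p under 0.05 in either comparison. DUSP1 was lower in both untreated NUP93-KO replicates (879 and 888) than in NONT (1223 and 1713), with a log2 difference of −0.71 ± 0.43 (limma adjusted p = 1). It was higher in both EXOSC5-KO replicates (2022 and 1906), with a difference of 0.44 ± 0.43 (limma adjusted p = 0.943). The differences of the 8 members ranged from −0.71 to 0.70 in NUP93-KO and from −0.32 to 0.71 in EXOSC5-KO. With SEs of 0.27 to 0.84, changes of this size did not pass. The spread of each gene was estimated over all 6 groups. These SEs therefore include the scatter of treated libraries with few reads and are not a measure of the untreated libraries alone.

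After triptolide, more DUSP7 mRNA was left in the knockouts than in NONT. The treated NUP93-KO values of 49.8 and 53.8 and the EXOSC5-KO values of 59 and 50.3 compare with 24.1 and 16.1 in NONT, with log2 differences of 1.35 ± 0.27 (limma adjusted p = 0.00432) and 1.42 ± 0.27 (limma adjusted p = 0.00238). DUSP1 was also higher, by 1.87 ± 0.43 in NUP93-KO (limma adjusted p = 0.00721) and 1.80 ± 0.43 in EXOSC5-KO (limma adjusted p = 0.00705), on 1 to 12 reads per library. DUSP5 passed in NUP93-KO (1.99 ± 0.75, limma adjusted p = 0.0441), where about 11 reads stood against 3. The ratio of these pooled approximate reads, adjusted for the worth of a read, was 6.33, with a 95% counting interval of 1.67 to 35.3. This DUSP5 call was lost in 17 of 22 alternative settings, with adjusted p from 0.0124 to 0.328. By comparison, the DUSP7 calls were lost in 2 of the 22 for NUP93-KO and 1 for EXOSC5-KO, while the DUSP1 calls were lost in 5 and 6. Each tally includes settings that leave the estimate unchanged, such as those without an untreated library. The DUSP1 calls were lost on every other scale. For the mitochondrial scale, the same total and the median of ratios, the limma adjusted p was 0.123, 0.0837 and 0.0825 in NUP93-KO. In EXOSC5-KO it was 0.111, 0.0543 and 0.0598 in that order. DUSP14 passed in EXOSC5-KO (limma adjusted p = 0.0154, lost in 4 of 22 alternatives), where it was at least 4.39-fold higher than the floor of 3 reads in each treated NONT library. In all, 3 of 8 members were higher in each knockout, beside 41.9% of all tested genes in NUP93-KO and 39.2% in EXOSC5-KO, so the share was close to the background. The median gene was itself higher by 0.66 and 0.65, and both comparisons share the treated NONT libraries. Without the second treated NONT replicate, 0 members passed in NUP93-KO and 1 in EXOSC5-KO. With libraries scaled to the mitochondrially encoded mRNAs, 0 passed in both, and with a median-of-ratios scale, at which the median gene difference was 0.00, DUSP7 was still higher by 0.70 (limma adjusted p = 0.0353) and 0.78 (limma adjusted p = 0.0126). Over all alternatives the adjusted p of DUSP7 ranged from 0.00184 to 0.179 in NUP93-KO and from 0.00117 to 0.157 in EXOSC5-KO.

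The difference in response tests the fall itself rather than the level left. It passed the threshold for 0 of 8 members between NUP93-KO and NONT, 0 of 8 between EXOSC5-KO and NONT and 0 of 8 between the knockouts by limma, beside 0.775%, 0.333% and 0.0217% of all tested genes. At an unadjusted p under 0.05 there were 2, 3 and 0 members. Of the 13811 tested genes, 5709, 3187 and 170 had a positive difference at this cut, in the same order. A negative difference was found for 39, 56 and 427 genes. The counts of members were not tested against this background. For DUSP1 the knockout response minus the NONT response was 2.58 ± 0.61 in NUP93-KO (limma adjusted p = 0.0541) and 1.36 ± 0.61 in EXOSC5-KO (limma adjusted p = 0.206) on the log2 scale. For DUSP7 it was 1.56 ± 0.39 (limma adjusted p = 0.0586) and 1.22 ± 0.39 (limma adjusted p = 0.164). The median gene had a difference of 0.74 and 0.57, and the comparisons share the NONT libraries. The calls turned on single libraries. Without the first untreated or the first treated NONT replicate, 2 members (DUSP1 and DUSP7) passed in NUP93-KO and 1 member did in EXOSC5-KO (DUSP7 and DUSP1, respectively), and without the second treated NONT replicate 0 passed in either. Without the first treated EXOSC5-KO replicate, 1 member passed in NUP93-KO.

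Patterns across all 12 libraries were compared for the tested members DUSP1 and DUSP16 by Pearson correlation of log2(value + 1), as a description. The points share the drug groups, and the fall after triptolide sets most of the likeness. The genes most like DUSP1 were PUM2 (r = 0.9986), MID1IP1 (r = 0.9978) and RRS1 (r = 0.9977). PUM2, which encodes an RNA-binding repressor, fell less, from 1326 and 1437 in untreated NONT to 174 and 132, while MID1IP1 fell from 627 and 906 to 8.46 and 3.28. Beside its identical row, DUSP16 was most like MSANTD4 (r = 0.9952) and KLF14 (r = 0.993). MSANTD4 shared with DUSP16 a higher value in the second treated EXOSC5-KO replicate, at 25.3 and 52.2 in these libraries against 24 and 53.2 for DUSP16.

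All falls of the members after triptolide were measured against spike-ins, and their direction did not rest on that scale. A median-of-ratios scale moves the median gene in NONT from −1.62 to −0.01. At a limma adjusted p under 0.05, 3752 of the 13811 tested genes were then higher in NONT and 4185 lower. The rest passed in neither direction. On this scale each of the 8 members still had a negative fold change in each genotype. DUSP14 in EXOSC5-KO was the 1 call lost (limma adjusted p = 0.0988).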

How the data were processed

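Polyadenylated RNA of U2OS cells was measured in 12 libraries, with groups taken from the sample labels. The authors added ERCC spike-ins in proportion to cell number, pseudoaligned strand-specific libraries with kallisto 0.46.1 (GRCh38), kept protein-coding genes and divided estimated counts by DESeq2 size factors from the 92 spike-ins. The deposited values are therefore a normalised signal per gene and not read counts, and an error in cell number or spike-in volume would move a whole library.

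Between 25.6% and 32.0% of low values were whole multiples of the worth of 1 read (within 0.02), too few to recover reads. Count models were therefore not used, apart from the counting intervals of DUSP5, which rest on rounded approximate reads. Depth in reads is approximate, and at 3 reads the floor was 1.47 to 5.29. Gene IDs were matched to GENCODE release 44 (19584 of 22379). Genes with an untreated mean of at least 10 (13811) were analysed as log2(value + 1) with limma 3.58.1 in R 4.3.3 (6 group means, all libraries, eBayes with trend, two-sided, Benjamini-Hochberg adjustment over genes, threshold 0.05). The fit was tested on simulated data in which few genes changed and values had no floor. That test does not cover a general loss of mRNA or genes near the floor. Errors are SE unless stated. Each gene has 1 estimate of spread over all 6 groups, so an SE does not follow the scatter of only the groups compared. Summaries used Python 3.11.15 with pandas 2.3.3, NumPy 2.4.6 and matplotlib 3.10.9. Promoters came from RefSeq (GRCh38.p14), 3′ UTRs from canonical GENCODE transcripts, with like length meaning 0.8 to 1.2 times the member's.

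The members, lists and tests were chosen with earlier results of these data known. Named genes were the members, the targeted genes, the 2 lowest and 2 highest tested genes of each pathway list by the NONT response, and the 3 genes most like DUSP1 and DUSP16 (DUSP6 was not tested); some of these are given by counts only. Alternatives were other scales, pseudocounts, filters, fits and leaving out each library.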

Additional observations from a re-analysis of the deposited data

How the results depend on the processing

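The falls of the members after triptolide were recomputed under 22 alternative settings, 12 of which left out a library. Of 630 alternative values, 629 were below 0, the exception being DUSP4 in EXOSC5-KO at 0.00 without the first untreated EXOSC5-KO replicate, and 525 of 528 tested values passed the threshold. The other 3 were DUSP14 in EXOSC5-KO with each library scaled to the same total (limma adjusted p = 0.0611), with a median-of-ratios scale (0.0988) and without the first untreated EXOSC5-KO replicate (0.0501). The count of members that fell was 8 in each genotype in the main analysis and 7 to 8 in EXOSC5-KO with a library left out.

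The comparison of treated knockouts with treated NONT depended on scale. In NUP93-KO the count of members fell from 3 to 0 with the mitochondrial scale and to 1 with the same total, the median of ratios or a fit of only the groups compared, and was 0 to 3 with a library left out. In EXOSC5-KO it fell from 3 to 0 with the mitochondrial scale and was 1 to 4 with a library left out. For the difference in response to NONT, the count of 0 in NUP93-KO became 2 with an untreated mean of at least 50 and 1 in a fit of only the groups compared, and was 0 to 2 with a library left out, while in EXOSC5-KO it was 0 to 1 with a library left out. The cause of these changes was not tested.

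The median difference between nuclear inducible and other members in NONT, −1.25, became −1.49 with the mitochondrial scale, −1.67 with the same total, −1.76 with the median of ratios, −1.74 with a pseudocount of 0.5 and −0.26 with a pseudocount of 5 (−1.31 to −1.22 with a library left out). In NUP93-KO it became −0.98 with a pseudocount of 5 and −1.51 over tested members only (−1.71 to −1.28 with a library left out), and in EXOSC5-KO −0.91 with a pseudocount of 5 (−1.57 to −1.17 with a library left out).

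The count of pathway genes that fell in NONT went from 68 to 33 with the same total and 29 with the median of ratios. With the median of ratios it went from 48 to 30 in NUP93-KO and from 55 to 27 in EXOSC5-KO. These scales move the median gene in NONT from −1.62 to −0.32 and −0.01, or to −1.28 with the mitochondrial scale. With the same total and the median of ratios, in that order, the NONT response turned positive for MAPK9 (0.49, 0.80), MAPK3 (0.72, 1.03), MAP2K1 (0.24, 0.56), MAP3K20 (0.57, 0.89), DUSP28 (0.80, 1.10), CCND1 (0.11, 0.43), RPS6KA2 (0.21, 0.52) and MAPK8IP2 (0.11, 0.40). With the median of ratios alone it did so for MAP2K2 (0.22), MAP3K6 (0.29) and ETV4 (0.23). PTPN7, at 0.35, turned to −0.15 with a pseudocount of 5 and ranged from −1.77 to 2.47 with a library left out, at −1.77 without the first untreated and −0.10 without the first treated NONT replicate.

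No pairing by replicate number was seen at the level of genes, since the differences of first minus second replicates correlated at −0.0513 to 0.0368 over 15 pairs of groups. Libraries were centred on their median gene for this, so a shared shift of whole libraries could not be seen. With the replicate number as a block, the counts of members were 8, 8 and 8 after triptolide, 0 and 0 in untreated knockouts, 3 and 3 in treated knockouts and 0 for each difference in response, and the pathway counts were 68, 46 and 56. With 2 replicates a group and few reads left after the drug, only large changes of the low members could be seen.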
